A study of Rattus norvegicus with 16 samples.

Results

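The 10 genes of the serotonin system followed here in hearts of newborn rats were 6 receptors (Htr2a, Htr2b, Htr2c, Htr1b, Htr1d and Htr4), the serotonin transporter Slc6a4, the degrading enzymes Maoa and Maob, and the synthesising enzyme Tph1. They were chosen by name, with measured strain differences known, and each was read from its brightest probe set with a single gene symbol, that is, the one with the highest mean over all 16 arrays. Each of the 10 had exactly 1 such probe set, so brightness decided nothing here, and the genes are 10 of 14324 that have a probe set of their own. The measured HHR minus NHR difference of Htr2a led to the choice, so it is described without a test. The other 9 genes were tested.

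The arrays came from HHR, the Hypertrophic Heart Rat, which is bred for polygenic cardiac enlargement, and from its control strain NHR, the Normal Heart Rat, all aged 2 days and otherwise untreated. There were 4 HHR males, 4 HHR females, 4 NHR males and 4 NHR females, with 1 array per animal and no pooling. The labels describe both ventricles freed of atria and whole hearts, and do not give litters. Values are log2 expression from the RMA method (background correction, normalization between arrays and summary over probes), so a difference of 1 is a doubling. Array medians lay between 7.19 and 7.28. On the first principal component of within-group variation (26.7% of that variation), HHR arrays scored -3.72 to 7.48, whereas NHR arrays spread to both ends. NHR female 3, NHR female 4 and NHR male 4 scored 14.4, 15.1 and 22.6 (the 3 high-scoring NHR arrays). NHR females 1 and 2 and NHR males 1 and 2 scored between -16.9 and -11.1 (the 4 low-scoring NHR arrays), and NHR male 3 scored 1.74. Results were recomputed without each of these sets. All 9 cardiomyocyte markers examined, among them Myh6, Actn2 and Tnnt2, exceeded 6.57, the limit for dim probe sets taken as the 40th percentile of the table.

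Serotonin is made from tryptophan by tryptophan hydroxylase (Tph1 outside the brain, Tph2 within it) followed by aromatic amino acid decarboxylase (Ddc). Blood platelets take it up through Slc6a4 and carry it through the circulation, and monoamine oxidases break it down, Maoa having the higher affinity for it. Htr2a, Htr2b and Htr2c couple to Gq and phospholipase C, Htr4 to Gs, which raises cyclic AMP, and Htr1b and Htr1d to Gi, which lowers it. Htr2a is known on vascular smooth muscle and platelets, and loss of Htr2b in the mouse disturbs heart development.

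Maoa and Maob lie side by side on the X chromosome, and their upstream sequences are shown because Maoa was the tested gene of the set that passed. Maob did not pass, but the strain differences of the genes were not compared with each other. The 250 bases before the RefSeq start of each gene are given 5′ to 3′ on the gene's own strand in build GRCr8, from a Brown Norway rat and not from these strains. Capitals mark the GC box GGGCGG on either strand, a sequence known to bind the factor Sp1.
Maoa (chrX:8681373-8681622, minus strand): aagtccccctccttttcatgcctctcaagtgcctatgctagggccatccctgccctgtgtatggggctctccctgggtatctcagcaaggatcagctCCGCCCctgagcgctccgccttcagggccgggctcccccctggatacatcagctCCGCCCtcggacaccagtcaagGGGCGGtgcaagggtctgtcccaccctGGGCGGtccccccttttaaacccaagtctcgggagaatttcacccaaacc
Maob (chrX:8490155-8490404, plus strand): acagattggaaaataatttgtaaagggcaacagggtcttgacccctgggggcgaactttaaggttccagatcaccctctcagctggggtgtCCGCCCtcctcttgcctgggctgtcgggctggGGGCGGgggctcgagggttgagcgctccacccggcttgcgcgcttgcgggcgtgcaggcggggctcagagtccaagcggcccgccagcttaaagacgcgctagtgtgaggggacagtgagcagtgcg
The Maoa window held 4 matches and the Maob window 2, and 30.5% of 33469 rat promoter windows of this length held at least 1. That share gives no background for 4 against 2, and a part of these sequences in the strain differences was not tested. A match is a description of the letters and not a binding site shown in these hearts. RefSeq promoters were in the table for 7 of the 10 genes and not for Htr2a, Htr4 and Slc6a4.

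Htr2a, the serotonin 2A receptor, stood far higher in HHR hearts in both sexes. In HHR males its values were 8.27, 8.13, 7.93 and 8.40, against 6.56, 6.72, 6.47 and 6.57 in NHR males. In HHR females they were 8.55, 8.06, 8.14 and 8.03, against 6.48, 6.89, 6.31 and 6.10 in NHR females. No HHR array overlapped with NHR, and there was a gap of 1.03 between the lowest HHR value (male 3) and the highest NHR value (female 2). Such separation in either direction was seen in 4.15% of all probe sets, 1.95% with HHR higher and 2.2% with HHR lower, but Htr2a was chosen for its difference and nothing is read from its place among them. The strain means were 8.19 ± 0.21 in HHR and 6.51 ± 0.24 in NHR (SD, n = 8 each), a difference in signal of 1.67 (SE 0.10). Of the 8 NHR arrays, 5 lay at or below the limit for dim probe sets. That limit is a percentile and not a measured detection floor. Whether so low a signal comes from any transcript was not tested, so no fold change in transcript is given. The difference in signal was 1.60 (SE 0.15) in males and 1.75 (SE 0.15) in females. The order of the group means was HHR females (8.19), HHR males (8.18), NHR males (6.58) and NHR females (6.45), and within each strain the sexes overlapped. Neither the interaction of strain and sex (-0.15, limma adjusted p = 0.997) nor the sex effect (0.06, adjusted p = 0.940) passed for this gene. NHR females were the most uneven group (SD 0.34), NHR males the most even (SD 0.11). Without the 3 high-scoring NHR arrays the difference was 1.55, without the 4 low-scoring ones it was 1.82, and leaving out any single array gave 1.61 to 1.75. In these bulk samples more cells that carry a transcript and more transcript per cell cannot be told apart. A sequence variant under the probes could also change a signal, and this was not tested.

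**Figure D1:**
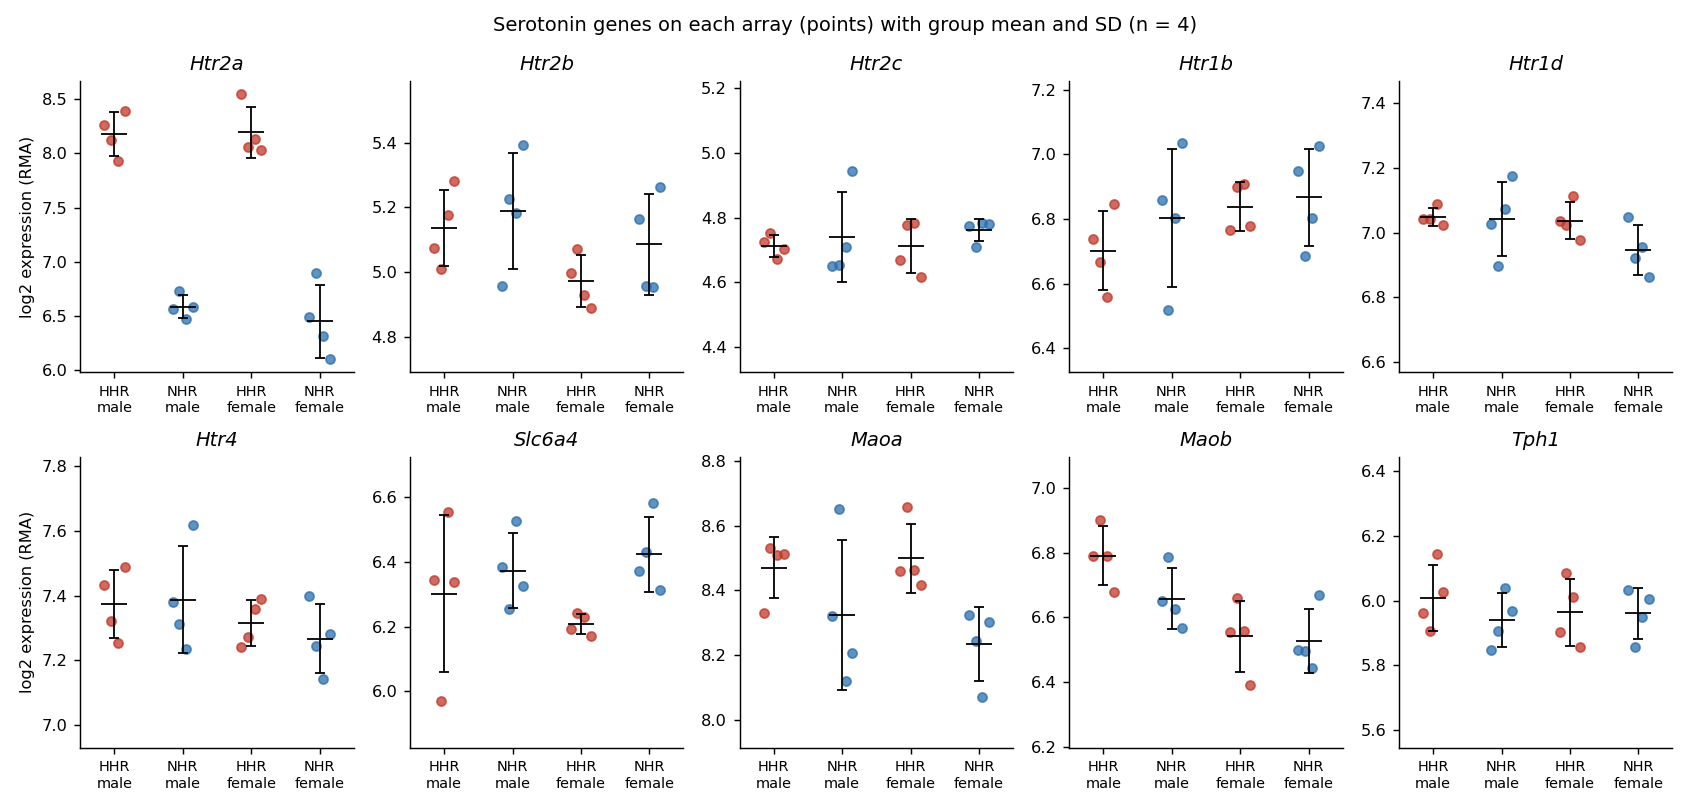
Log2 expression (RMA) of the 10 serotonin genes on each array, by group, with the group mean and SD (n = 4). Each panel spans its own range of values. HHR is red and NHR blue. Only the Htr2a panel shows all 8 HHR arrays (7.93 to 8.55) above all 8 NHR arrays (6.10 to 6.89).

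Of the other 9 genes, 1 passed the test between strains (Maoa, higher in HHR), 0 were lower and 8 did not pass. Among all probe sets 20.7% passed, 9.64% higher and 11% lower in HHR, and 1 of 9 is not above that background. The differences of the 9 genes ran from -0.14 to 0.20, with a median of 0.02 and a median size of 0.07, whereas over all probe sets the median was -0.03 and the median size 0.08. No gene of the 9 separated the strains fully. A probe set counted as dim where fewer than 4 arrays exceeded that limit of 6.57, and 6 of the 10 genes were not dim. Htr2b, Htr2c, Slc6a4 and Tph1 were dim, and Htr2a exceeded the limit on 11 arrays, among them all 8 of HHR.

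**Figure D2:**
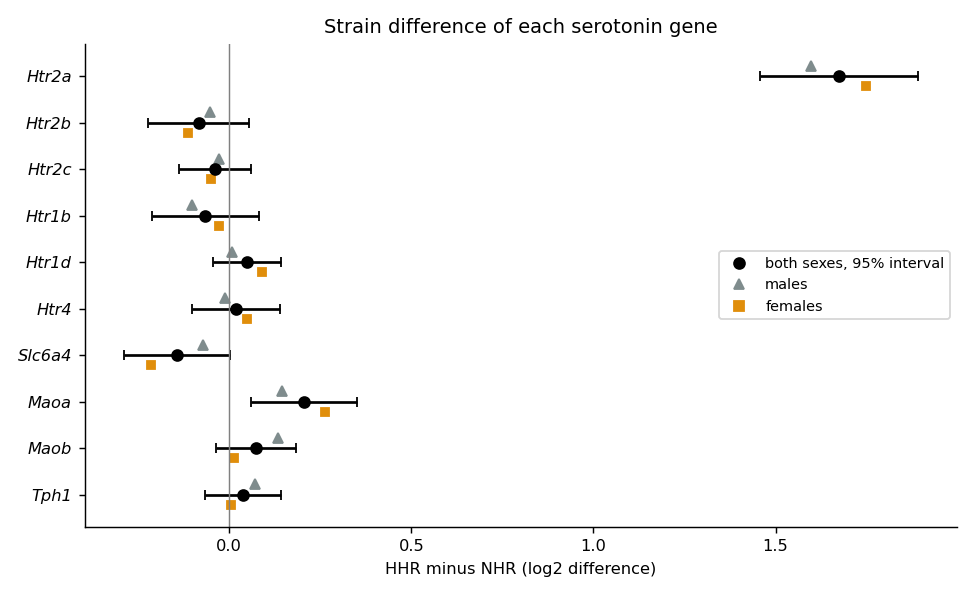
Log2 difference of HHR minus NHR for each serotonin gene, averaged over the sexes with its 95% interval, and within males and within females. Htr2a lies at 1.67, and the other 9 genes lie between -0.14 and 0.20, with only the interval of Maoa clear of 0.

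The Gq-coupled relatives of Htr2a, Htr2b and Htr2c, did not pass the test. Htr2b, the receptor needed for heart development in the mouse, ranged from 4.89 to 5.28 in HHR (median 5.04) and from 4.95 to 5.39 in NHR (median 5.17). The strains overlapped almost entirely, with 2 HHR arrays, both female, below the lowest NHR array. The difference was -0.08 (SE 0.07, limma adjusted p = 0.401), with a 95% interval of -0.22 to 0.05. Htr2c, a receptor best known from brain, lay between 4.62 and 4.78 in HHR (median 4.71) and between 4.65 and 4.94 in NHR (median 4.74). Its difference was -0.04 (SE 0.05, adjusted p = 0.616, 95% interval -0.14 to 0.06), and the sign was not stable between normalizations. Both probe sets were dim on every array.

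None of the receptors coupled to Gi and Gs passed. Htr1b, a Gi-coupled receptor of vessels and nerve endings, ranged from 6.56 to 6.91 in HHR (median 6.77) and from 6.52 to 7.03 in NHR (median 6.83), a difference of -0.07 (SE 0.07, limma adjusted p = 0.554, 95% interval -0.21 to 0.08). Htr1d, its close relative, lay within 6.98 to 7.11 in HHR (median 7.04) and 6.86 to 7.17 in NHR (median 6.99). Its difference was 0.05 (SE 0.04, adjusted p = 0.484, 95% interval -0.05 to 0.14), and the NHR arrays spanned the whole HHR range. Htr4, the Gs-coupled receptor through which serotonin acts on human atrium, ranged from 7.24 to 7.49 in HHR (median 7.34) and from 7.14 to 7.62 in NHR (median 7.30), with a difference of 0.02 (SE 0.06, adjusted p = 0.861, 95% interval -0.10 to 0.14). The highest Htr4 value was that of NHR male 4, a high-scoring array. The 95% intervals of the 8 genes that did not pass lay between -0.29 and 0.18. For the dim Htr2b, Htr2c, Slc6a4 and Tph1 they describe the signal and give no bound on the transcript, and the end at -0.29 is that of Slc6a4.

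Slc6a4, the transporter that clears serotonin from the extracellular space, did not pass over both sexes or within either. Its probe set was dim, with only 1 array above the limit, and whether so low a signal comes from any transcript was not tested. The HHR males had 6.35, 5.97, 6.55 and 6.34, against 6.38, 6.25, 6.53 and 6.33 in NHR males, and these groups overlapped. The HHR females had 6.19, 6.24, 6.23 and 6.17, against 6.37, 6.43, 6.58 and 6.31 in NHR females, so that every HHR female lay below every NHR female. Full separation of the females in either direction was seen in 18.4% of all probe sets. The difference was -0.22 in females (SE 0.10, limma adjusted p = 0.166) and -0.07 in males (SE 0.10, adjusted p = 0.744), and the interaction did not pass (0.14, adjusted p = 0.994). Averaged over the sexes it was -0.14 (SE 0.07, adjusted p = 0.155, 95% interval -0.29 to 0.002). HHR male 2 held the lowest value and HHR male 3 the highest within HHR. Platelets carry this transporter, and of 5 platelet markers measured 1 rose (Ppbp, by 0.47) and 1 fell (Pf4, by 0.61), Ppbp missing the threshold without the 4 low-scoring NHR arrays (0.31, adjusted p = 0.0859). The mean of the 5 markers per array ranged from 6.97 to 7.27 in HHR and from 6.82 to 7.65 in NHR, and its part in the Slc6a4 values was not tested.

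Maoa, the monoamine oxidase that prefers serotonin, was modestly higher in HHR. Males of HHR had 8.33, 8.53, 8.51 and 8.51, against 8.32, 8.65, 8.12 and 8.21 in NHR males. Females of HHR had 8.46, 8.66, 8.46 and 8.42, against 8.32, 8.24, 8.07 and 8.30 in NHR females. The females did not overlap, as was so in either direction for 18.4% of all probe sets. In contrast, NHR male 2, with 8.65, lay above every HHR array but HHR female 2. The strain means were 8.48 ± 0.09 in HHR and 8.28 ± 0.18 in NHR (SD, n = 8 each), a difference of 0.20 (SE 0.07, limma adjusted p = 0.0441) or 1.15-fold, with a 95% interval of 0.06 to 0.35. Within females it was 0.26 (SE 0.10, adjusted p = 0.0893) and within males 0.15 (SE 0.10, adjusted p = 0.440). The percentages of all probe sets called within each sex were 12% in females and 4.02% in males. The call was narrow. It was kept without HHR female 4, HHR male 1, NHR female 1 or NHR male 2, and was lost without any of the other 12 arrays, with differences between 0.17 and 0.22 and adjusted p between 0.0514 and 0.0951. Without the 3 high-scoring NHR arrays the difference was 0.16 (adjusted p = 0.194), and without the 4 low-scoring ones it was 0.31 (adjusted p = 0.00292).

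Maob, the sister enzyme encoded beside Maoa, differed by 0.07 between the strains (SE 0.05, limma adjusted p = 0.345, 95% interval -0.04 to 0.18). HHR arrays ranged from 6.39 to 6.90 (median 6.67) and NHR arrays from 6.44 to 6.79 (median 6.60). HHR males had 6.79, 6.90, 6.79 and 6.68, and NHR males 6.65, 6.79, 6.63 and 6.57. HHR females had 6.55, 6.66, 6.56 and 6.39, and NHR females 6.50, 6.50, 6.44 and 6.67. Of the 8 males, 5 lay above every female, and the male minus female difference over both strains was 0.19 (SE 0.05, unadjusted p = 0.0018). That did not pass after adjustment over all probe sets (limma adjusted p = 0.672). Only 3 of 27342 probe sets, or 0.011%, passed for sex, and 1749 had an unadjusted p under 0.05. With a minimum of 1.5-fold 0 passed. The sexes were taken from the sample titles and were not checked on sex-linked transcripts.

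Tph1, the enzyme that starts serotonin synthesis outside the brain, ranged from 5.86 to 6.14 in HHR (median 5.99) and from 5.85 to 6.04 in NHR (median 5.96). The difference was 0.04 (SE 0.05, limma adjusted p = 0.649, 95% interval -0.07 to 0.14) on a probe set that was dim on all 16 arrays. HHR female 2 and HHR male 3 exceeded all of NHR.

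None of the 10 genes passed for sex or for the interaction. Their largest interaction was 0.15 in size, that of Htr2a, and among all probe sets 0 (0%) passed for the interaction with limma, against 1390 with an unadjusted p under 0.05. The X-linked genes Htr2c, Maoa and Maob gave male minus female differences of -0.01, 0.03 and 0.19, and the autosomal genes gave values between -0.10 and 0.13.

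Of 8 other serotonin receptor genes, which were all dim, 1 rose (Htr3a), 0 fell and 7 did not pass, with a median difference of -0.02. That is 1 of 8, where 20.7% of all probe sets passed. Htr3a, a subunit of the serotonin-gated ion channel, averaged 5.63 ± 0.13 in HHR and 5.42 ± 0.14 in NHR (SD, n = 8 each), a difference of 0.21 (SE 0.07, limma adjusted p = 0.0368) with 4 HHR arrays above every NHR array. Its call was lost without any of 11 arrays, namely HHR females 2, 3 and 4, HHR males 2, 3 and 4, NHR females 1 and 4, and NHR males 1, 2 and 3, with differences between 0.19 and 0.22 and adjusted p between 0.0509 and 0.0789. Without the 3 high-scoring NHR arrays it was 0.24 (adjusted p = 0.0255), and without the 4 low-scoring ones 0.18 (adjusted p = 0.136). Htr7, a Gs-coupled receptor of vessels, differed by -0.10 (adjusted p = 0.136).

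Of 21 other genes that make, move and break down serotonin, 4 rose, 2 fell and 15 did not pass (median -0.01), beside 9.64% higher and 11% lower among all probe sets. Pts, an enzyme of tetrahydrobiopterin synthesis and so of the cofactor of tryptophan hydroxylase, averaged 7.55 ± 0.14 in HHR and 7.03 ± 0.22 in NHR (SD, n = 8 each), a difference of 0.52 (SE 0.08, limma adjusted p = 3.97e-04), with no overlap between the strains. Slc7a5, the carrier of large neutral amino acids including tryptophan, differed by 0.40 (SE 0.06, adjusted p = 3.7e-04), and 5 HHR arrays exceeded all of NHR. Its difference was 0.20 in males (adjusted p = 0.230) and 0.61 in females (adjusted p = 6.98e-04), and the interaction did not pass (-0.40, unadjusted p = 0.00556, limma adjusted p = 0.964). Aldh1a1, an aldehyde dehydrogenase, rose by 0.39 (SE 0.05, adjusted p = 5.3e-05, 8 of 8 arrays), from a probe set dim in both strains. Ddc, the decarboxylase that forms serotonin and dopamine, averaged 11.17 ± 0.09 in HHR and 11.57 ± 0.12 in NHR. It fell by 0.40 (SE 0.05, adjusted p = 1.05e-04), with no overlap between the strains. Aldh2, the mitochondrial aldehyde dehydrogenase that acts after monoamine oxidase, fell by 0.24 (SE 0.04, adjusted p = 6.0e-04, 7 of 8 arrays below every NHR array). Tph2, the vesicular transporter Slc18a2, the uptake transporter Slc22a3 and Tgm2, which attaches serotonin to proteins, differed by 0.005, -0.002, -0.06 and 0.01 and did not pass. Leaving out the 3 high-scoring NHR arrays gave 3 higher and 2 lower in this list, and leaving out the 4 low-scoring ones 3 and 4. Over all 27342 probe sets the calls also moved, from 5651 to 3997 and to 7747 in these settings.

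Of 25 genes of Gq and related signalling below the Htr2 receptors, 4 rose, 6 fell and for 15 the test was not met (median -0.06), beside 9.64% higher and 11% lower among all probe sets. Leaving out the 3 high-scoring NHR arrays gave 2 higher and 5 lower, and leaving out the 4 low-scoring ones 5 and 6. These counts stand beside 3997 and 7747 calls among all 27342 probe sets, against 5651 with all arrays. Of the 25 genes 23 were not dim, and with dim probe sets filtered out 5654 of 16900 probe sets passed. Rgs2, which shortens Gq signals, was higher by 0.43 (limma adjusted p = 3.2e-04, SE 0.07). Gna13, an alpha subunit of a G protein other than Gq, was higher by 0.37 (adjusted p = 1.6e-04, SE 0.05), and for both genes 7 HHR arrays exceeded all of NHR. Prkcd, a protein kinase C, rose by 0.18 (adjusted p = 0.00914) but lost its call on leaving out the 3 high-scoring arrays (0.13, adjusted p = 0.0663). Dgkz, which removes the second messenger diacylglycerol, fell by 0.33 (SE 0.05, adjusted p = 1.6e-04, 7 of 8 arrays below every NHR array). The protein kinase C genes Prkcb and Prkce fell by 0.21 (adjusted p = 0.00146) and 0.25 (adjusted p = 0.00561). Gnaq itself, the subunit that carries the Htr2a signal, is among the 15 that did not pass.

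Of 21 genes of the cyclic AMP pathway below Htr4 and the Htr1 receptors, 5 rose, 5 fell and 11 did not pass (median -0.05), beside 20.7% passing among all probe sets. There were 3 higher and 3 lower without the 3 high-scoring NHR arrays, and 6 and 5 without the 4 low-scoring ones. In the same settings 3997 and 7747 of all 27342 probe sets passed, against 5651 with all arrays. Of the 21 genes 19 were not dim, and 5654 of 16900 probe sets passed with dim ones filtered out. Adcy1, an adenylyl cyclase, averaged 8.07 ± 0.13 in HHR and 8.67 ± 0.07 in NHR (SD, n = 8 each), a fall of 0.59 (SE 0.05, limma adjusted p = 1.75e-06, 8 of 8 arrays below every NHR array). S100a10, an adaptor protein that brings Htr1b to the cell surface, changed by -0.40 (adjusted p = 0.00121, SE 0.07) with 7 HHR arrays under all of NHR. The phosphodiesterase Pde4d changed by -0.23 (adjusted p = 0.0190, SE 0.07). Gnas, the stimulatory subunit, was higher by 0.29 (adjusted p = 4.6e-04, SE 0.05). The inhibitory subunit Gnai1 was higher by 0.38 (adjusted p = 0.00227, SE 0.08), and neither gene overlapped between the strains. Gnai3, also inhibitory, rose by 0.21 (adjusted p = 0.00585) but missed the threshold on leaving out the 3 high-scoring arrays (0.16, adjusted p = 0.0552). Of 12 other Gq-coupled receptors of heart, 2 rose, 1 fell and 9 did not pass (median -0.02). That share of calls is to be read beside the 20.7% of all probe sets, and beside 5654 of 16900 without dim ones. The thrombin receptor F2r rose by 0.27 (SE 0.05, adjusted p = 0.00166) and the ATP receptor P2ry1 by 0.23 (SE 0.07, adjusted p = 0.0217), while the adrenergic receptor Adra1d fell by 0.17 (SE 0.05, adjusted p = 0.0239). Without the 3 high-scoring arrays P2ry1 was at 0.18 (adjusted p = 0.136) and Adra1d at -0.15 (adjusted p = 0.1005). Adra1d was also lost without HHR female 2 (-0.15, adjusted p = 0.0522) or HHR female 3 (-0.16, adjusted p = 0.0522).

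**Figure D3:**
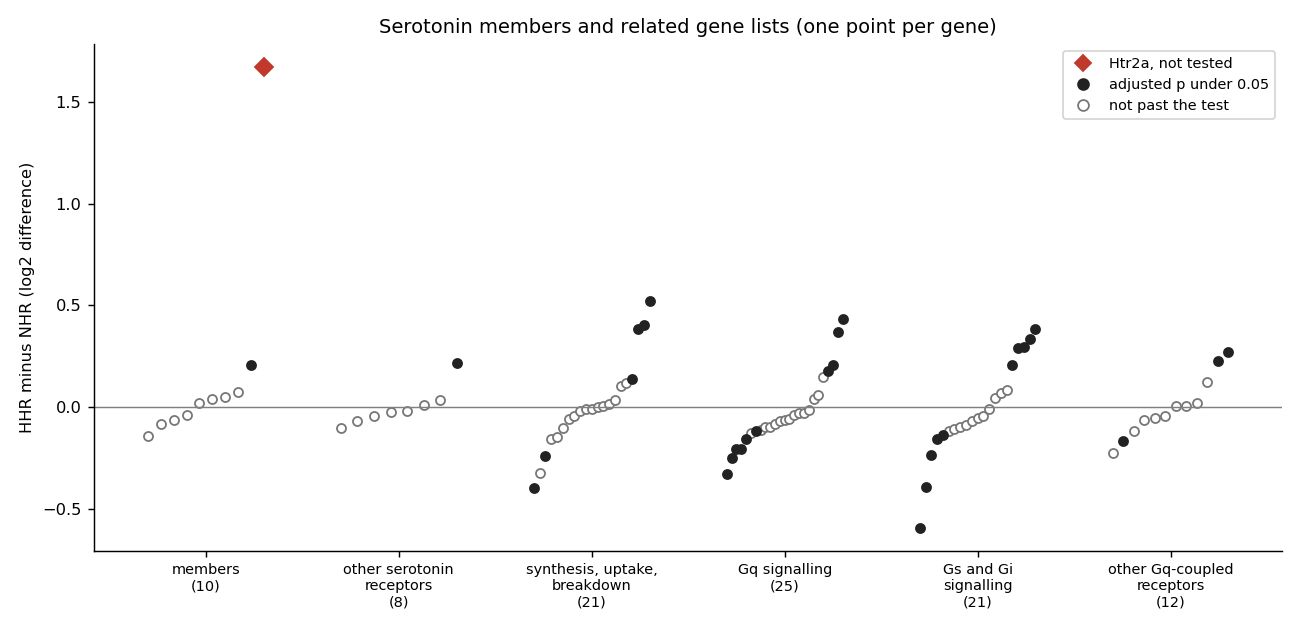
Log2 difference of HHR minus NHR for the 10 serotonin genes and the genes of 5 related lists, 1 point per gene, sorted within each list. Filled points passed the test (adjusted p under 0.05), open points did not, and the red diamond is Htr2a, which was not tested. Apart from Htr2a at 1.67, the values run from -0.59 (Adcy1) to 0.52 (Pts).

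The nearest measured genes on either side of Htr2a, on chromosome 15, gave differences between -0.43 and 0.27. Of 6, 2 rose, 2 fell and 2 did not pass, beside 20.7% passing among all probe sets. With dim probe sets filtered out, 5654 of 16900 passed. Sucla2, a subunit of succinate-CoA ligase and the nearest on one side, averaged 11.58 ± 0.05 in HHR and 11.31 ± 0.15 in NHR (SD, n = 8 each), a difference of 0.27 (SE 0.05, limma adjusted p = 0.00153, 7 of 8 arrays above every NHR array). Med4, a Mediator subunit, differed by 0.14 (SE 0.05, adjusted p = 0.0333). On the other side Esd, esterase D, differed by 0.02 (adjusted p = 0.826). Lrch1 fell by 0.13 (SE 0.04, adjusted p = 0.0218) and Lcp1, an actin-bundling protein of leukocytes, by 0.43 (SE 0.05, adjusted p = 4.6e-05, 8 of 8 arrays below every NHR array). Of 6 leukocyte markers 1 rose (C1qb) and 1 fell (Ptprc), their mean per array ranged from 7.24 to 7.49 in HHR and from 7.15 to 7.47 in NHR, and their part in the Lcp1 value was not tested. Leaving out the 3 high-scoring arrays ended the calls of Med4 (adjusted p = 0.0971) and Lrch1 (adjusted p = 0.0832). Lrch1 was also lost without HHR male 2 (-0.12, adjusted p = 0.0520). Med4 was lost without any of HHR females 2 and 4, HHR males 3 and 4, NHR females 1 and 3, and NHR males 1 and 3, with differences of 0.12 to 0.14 (adjusted p between 0.0568 and 0.0702). Around Maoa, none of 6 neighbours, Maob included, passed (smallest adjusted p = 0.162).

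**Figure D4:**
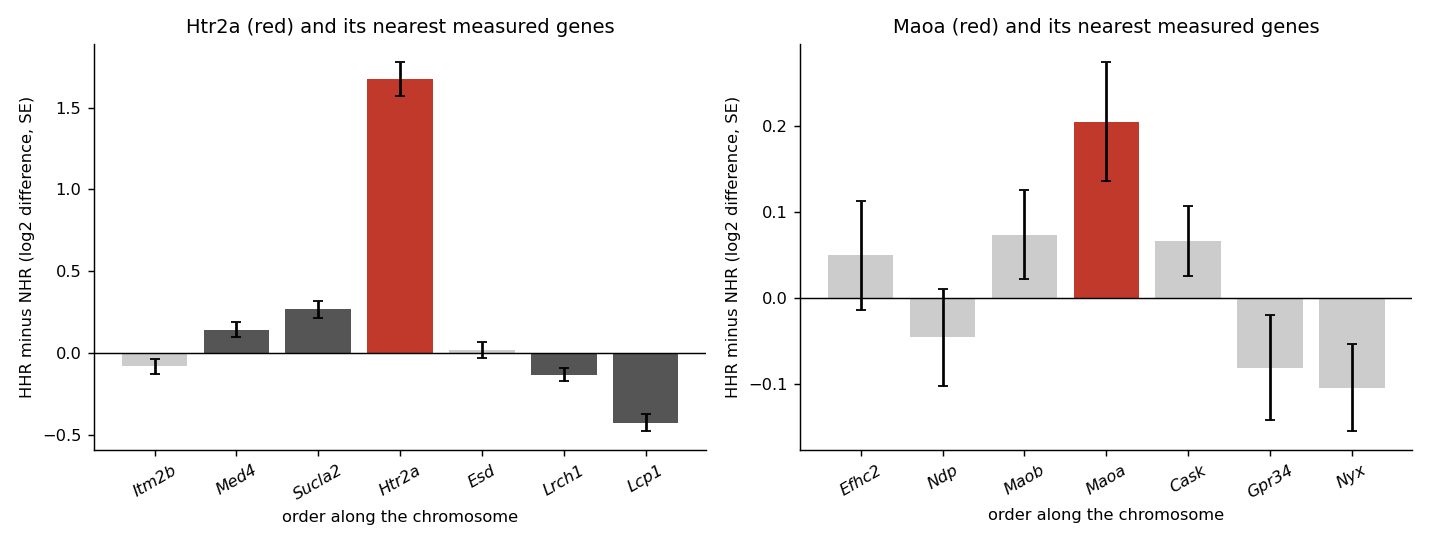
Log2 difference of HHR minus NHR (bars, with SE) for Htr2a and Maoa and the 3 nearest measured genes on each side, in their order along the chromosome. Dark grey bars passed the test, light grey bars did not, and red marks the named gene. The Htr2a bar (1.67) stands beside neighbours between -0.43 and 0.27, and the Maoa bar (0.20) beside neighbours between -0.10 and 0.07.

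The genes whose centred profiles over the 16 arrays lay closest to that of Htr2a were Med22, Wdr46, Nt5c3a, Itgbl1 and Pex3. Their root mean square differences from it were 0.19, 0.25, 0.25, 0.28 and 0.29 on the log2 scale, where the profile of Htr2a itself has a root mean square of 0.86. All 5 are, like Htr2a, higher on all 8 HHR arrays, by 1.24 to 1.62. A likeness of this kind is set by the size of the strain difference.

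Marker lists of other cells are given with the same background of 9.64% higher and 11% lower among all probe sets. With dim probe sets filtered out 5654 of 16900 passed, 2777 of them higher in HHR. That is the nearer background for lists that are not dim, such as the 9 cardiomyocyte markers. Of 9 smooth muscle and pericyte markers, cells in which Htr2a is known, 1 rose (Tagln, by 0.33) and 2 fell (Myh11, by 0.33, and Smtn, by 0.17, a call lost without any of HHR females 2, 3 and 4, HHR male 4, NHR females 1 and 2, and NHR males 1 and 3), and their mean per array ranged from 10.06 to 10.27 in HHR and from 9.99 to 10.23 in NHR. Of 8 fibroblast and valve markers 3 rose (Tcf21, Dpt and Pdgfra) and 0 fell, Pdgfra losing its call without any of HHR females 2 to 4, HHR males 2 to 4, NHR female 2, or NHR males 3 and 4 (10.78 to 11.14 in HHR and 10.63 to 10.93 in NHR). Of 6 atrial markers 3 rose (Bmp10, by 1.05, Nppa and Kcnj3) and 1 fell (Kcna5, a call lost without any of HHR females 1 and 4, HHR males 1 and 2, NHR female 3, or NHR males 3 and 4). Bmp10 differed by 0.36 in males (limma adjusted p = 0.213) and by 1.75 in females (adjusted p = 4.56e-06), and Nppa by 0.16 (adjusted p = 0.236) and 0.52 (adjusted p = 4.81e-04), with interactions that did not pass (adjusted p = 0.243 and 0.964). For Bmp10 the interaction was -1.38 (unadjusted p = 8.90e-06). The atrial array means were 9.73 to 10.61 in HHR and 9.36 to 10.08 in NHR. Of 9 cardiomyocyte markers 5 fell and 0 rose (13.26 to 13.36 in HHR and 13.33 to 13.47 in NHR). Mast cell markers, 10 in number and 9 of them dim, gave 0 calls with limma and 0 at an unadjusted p under 0.05 (5.31 to 5.43 in HHR and 5.33 to 5.42 in NHR).

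Of 5 endothelial and endocardial markers, from cells that line vessels, 3 fell, 1 rose and 1 did not pass. Cldn5, which seals endothelial junctions, was at -0.41 (SE 0.05, limma adjusted p = 6.8e-05). The receptor Tie1 fell by 0.22 (SE 0.04, adjusted p = 0.00138) and the cadherin Cdh5 by 0.16 (SE 0.05, adjusted p = 0.0219). Npr3, a natriuretic peptide receptor, rose by 0.22 (SE 0.07, adjusted p = 0.0292), a call lost without any of HHR female 2, HHR males 1 and 2, NHR females 2 and 4, or NHR males 1 and 3 (0.17 to 0.22, adjusted p between 0.0511 and 0.0614). The list's mean per array ranged from 9.85 to 10.09 in HHR and from 10.03 to 10.19 in NHR. Of 4 erythroid markers 1 rose (Hbb, by 0.45) and 2 fell (Epb42, by 0.55, and Slc4a1, by 0.34), with array means of 8.92 to 9.26 in HHR and 8.91 to 9.46 in NHR. Of 8 neuronal markers 1 rose (Uchl1, by 0.19) and 0 fell (6.39 to 6.51 in HHR and 6.37 to 6.51 in NHR), and 5 Schwann cell markers gave 0 calls with limma and 0 at an unadjusted p under 0.05 (6.64 to 6.79 in HHR and 6.57 to 6.88 in NHR). Each marker list overlapped between the strains in its mean per array, and their part in the Htr2a or Maoa values was not tested. Without the 3 high-scoring NHR arrays the counts were 1 higher and 1 lower for smooth muscle, 2 and 0 for fibroblasts, 3 and 0 for atrium, 0 and 2 for cardiomyocytes, and 1 and 3 for endothelium. Without the 4 low-scoring ones they were 3 and 1, 4 and 0, 3 and 1, 0 and 6, and 0 and 2 in the same order. Calls among all 27342 probe sets went from 5651 to 3997 and to 7747 in these settings. Myh11, Pdgfra, Kcna5, Tnni3 and Uchl1 missed the threshold without the 3 high-scoring arrays (adjusted p between 0.0731 and 0.133), and Tagln, Smtn, Cdh5 and Npr3 without the 4 low-scoring ones (adjusted p between 0.0581 and 0.186). No marker has a true 0 on this scale.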

How the data were processed

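Expression was measured on Affymetrix Rat Gene 1.0 ST arrays, with 1 array for each of 16 hearts. The deposited values are log2 expression, and RMA and limma are named in the submitters' processing notes. Their versions and any filters are not stated in the labels. Array number limits the precision. Probe sets were named from the platform annotation, in which 15097 carry 1 gene symbol. Groups and replicate numbers come from the sample titles.

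A mean per group was fitted with limma 3.58.1 in R 4.3.3 to all 27342 probe sets, with its moderated test; p-values were adjusted by Benjamini-Hochberg across the table (threshold 0.05). The fit was tried on simulated arrays with independent noise of the same spread in both strains. That setting lacks the shared and wider variation of the NHR arrays, so it says nothing on calls that depend on it. Contrasts were HHR minus NHR over both sexes and within each, their interaction, and males minus females. No statement says that animals came from separate litters, so p-values measure the spread between these animals. The strains shared an estimate of that spread, although NHR arrays spread more widely on the first component, and all arrays were treated as independent. The members and lists were chosen with earlier results of these data known, and so was the leaving out of 3 NHR arrays; leaving out the 4 low-scoring ones, and the counts per list under each alternative, were added after the data were seen. From each list up to 3 genes per direction with the smallest adjusted p were named. Genes that did not pass, and marker genes, were named as examples after their values were seen. Neighbours are the 3 nearest measured genes on each side in the RefSeq table of GRCr8, used for order only. Gene likeness was the root mean square difference of centred profiles. Alternatives were other normalizations, moderation, weights, filters and thresholds, a replicate block, and leaving out arrays.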

Additional observations from a re-analysis of the deposited data

Results flagged for a closer look

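In 4 cases a value stood far from the other 3 of its group, by a gap of more than 0.829 of the group's range. Among the serotonin genes, Htr2c read 4.71 in NHR female 2, against 4.77 to 4.78 in the other NHR females, and Maoa read 8.33 in HHR male 1, against 8.51 to 8.53 in the other HHR males. Among neighbours and genes of like profile, Efhc2 read 4.78 in NHR male 1, above the other NHR males, and Med22 read 7.70 in NHR male 2, above the other NHR males. In all 104 groups were examined, 40 of them of the serotonin genes, and chance alone marks about 1 in 20.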

How the results depend on the processing

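The Htr2a difference was positive under all 28 alternatives run for it (1.55 to 1.82), a description only, as the gene was chosen for it. The filters, the stricter threshold, the moderation, the replicate block and leaving sex out of the fit do not alter this estimate (1.67). Of 56 named genes that passed, 36 passed under every alternative run for them and 20 missed the threshold under 1 or more. The minimum of 1.5-fold was applied to counts only and not to single genes. Htr2c changed sign to 0.0097 after quantile normalization, 0.0036 after cyclic loess and 0.0060 without the 3 high-scoring NHR arrays. Esd was at -0.015 after quantile normalization. Leaving out 1 array gave -0.0068 to 0.057 for Htr4, -0.0028 to 0.045 for Esd, 0 or 1 called among the other 9 serotonin genes, 4651 to 6402 probe sets for strain, 489 to 2026 in males, 1830 to 3761 in females, 0 to 1 for the interaction and 2 to 4 for sex. The male count moved most without HHR males 1 (589), 2 (518) and 4 (722) and NHR males 1 (704), 2 (2026), 3 (489) and 4 (689), the female count without HHR female 1 (2101) and NHR females 3 (2089) and 4 (1830). At an adjusted p of 0.01 the counts were 0 of the 9 genes, 2893 for strain, 332 in males, 1176 in females and 0 for sex. With a minimum of 1.5-fold they were 0, 229, 200, 334 and 0. Without the 3 high-scoring NHR arrays they were 0 of the 9 genes, 3997 for strain, 1238 in females and 0 for sex. Without the 4 low-scoring NHR arrays, a setting chosen after seeing the data, they were 7747 for strain, 3432 in males, 5498 in females, 1 for the interaction and 0 for sex, and the sign turned for Tph1 (-0.0030), Esd (-0.054) and Efhc2 (-0.0063). Array weights gave 2035 in males and 5 for sex. After median centring 56.3% of 5229 strain calls were higher in HHR, against 46.6% of 5651, and within females 58.5% against 48.2%. The labels do not say that replicate numbers pair arrays. Of 8 same-numbered pairs, 2 (males 2 and 4, at 0.20 and 0.30) correlated above 0.1, and 9 of 16 arrays correlated best with their own number. The replicate block gave 6145 probe sets for strain and kept Maoa (adjusted p = 0.0239). Each serotonin gene has 1 probe set, so averaging probe sets was not run. Dim probe sets give no bound on Htr2b, Htr2c, Slc6a4 and Tph1.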
